A study of Mus musculus with 12 samples.

Results

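Astrocytes that flow cytometry had sorted from mouse brain were compared between animals labelled knockout (KO) and wild type (WT) for Kpna4, all of them after lipopolysaccharide (LPS). The comparison took 6 of the 12 libraries of the series by their labels: KO animals 194, 196 and 198 (replicates 1 to 3) against WT animals 195, 197 and 204 (replicates 1 to 3), with 1 library per animal. The other 6 libraries hold microglia of the same animals. Mice of both genotypes were 8 to 9 weeks old and had received LPS at 1 mg/kg into the peritoneum 20 h before dissection, so LPS is shared by both groups and untreated mice were not analysed here. The labels say neither which part of Kpna4 was removed nor whether the removal was limited to a cell type. The comparison asks which astrocyte genes differ between animals with these labels during systemic inflammation.

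Kpna4 encodes importin α4, one of the adaptors that bind the nuclear localization signal of a cargo protein and hand it, together with importin β, through the nuclear pore. Transcription factors of the inflammatory response, among them NF-κB subunits and STAT proteins, are cargoes of the importin α family. LPS in the blood is sensed through Toll-like receptor 4, and the cytokines and interferons that follow reach astrocytes, which then take on a reactive state with higher Gfap, Vim, Lcn2 and Serpina3n and with interferon-responsive genes. Type I interferon acts through the receptor pair Ifnar1 and Ifnar2, after which a complex of transcription factors that includes STAT2 and IRF9 binds interferon-stimulated response elements in the promoters of its target genes.

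The libraries held 10.7 M to 15.6 M estimated counts and 15791 to 19800 genes with a count. Levels are given as CPM, counts scaled to one common library size after TMM factors, which allow for the differences in composition that a few abundant RNAs make. The 26 astrocyte markers summed to 33501 to 42002 CPM in WT and 39582 to 43733 CPM in KO, with Slc1a2 and Slc1a3 among the most abundant. Markers of other cells were present at lower sums: 356 to 1000 CPM in WT and 601 to 673 CPM in KO for 16 microglia markers, and 1416 to 4398 CPM in WT and 1670 to 2611 CPM in KO for 15 oligodendrocyte markers. All marker sums overlapped between the genotypes.

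KO replicate 2 (animal 196) stood apart from the other libraries. It had the lowest total, the fewest genes with a count, and no count in 1140 of the tested genes against 74 to 475 in the others. 8 abundant non-coding RNAs, mostly mitochondrial rRNA, took 39.5% of its counts against 26.2% to 32.0% elsewhere, and messenger RNAs of the mitochondrial genome took 3.82% against 2.40% to 2.7%. Its mean correlation with the other libraries was 0.845 against 0.874 to 0.902, and the first principal component, 41.6% of the variance, set it alone at one end. WT replicate 2 stood alone on the second component, with 21.9% of the variance. In KO replicate 2 short transcripts were high and long ones low: relative to the WT mean the median log2 difference was 0.84 for genes whose longest transcript is under 1 kb and -0.27 for those over 8 kb. Across 10952 genes, which are not independent replicates, Spearman's rho between its deviation and transcript length was -0.29, while the other libraries lay between -0.13 and 0.12. The KO against WT log2 fold change carried the same relation, with a rho of -0.23 over all 6 libraries and -0.03 without KO replicate 2. Gene groups are therefore also described without that library, and so are many of the genes named.

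**Figure D1:**
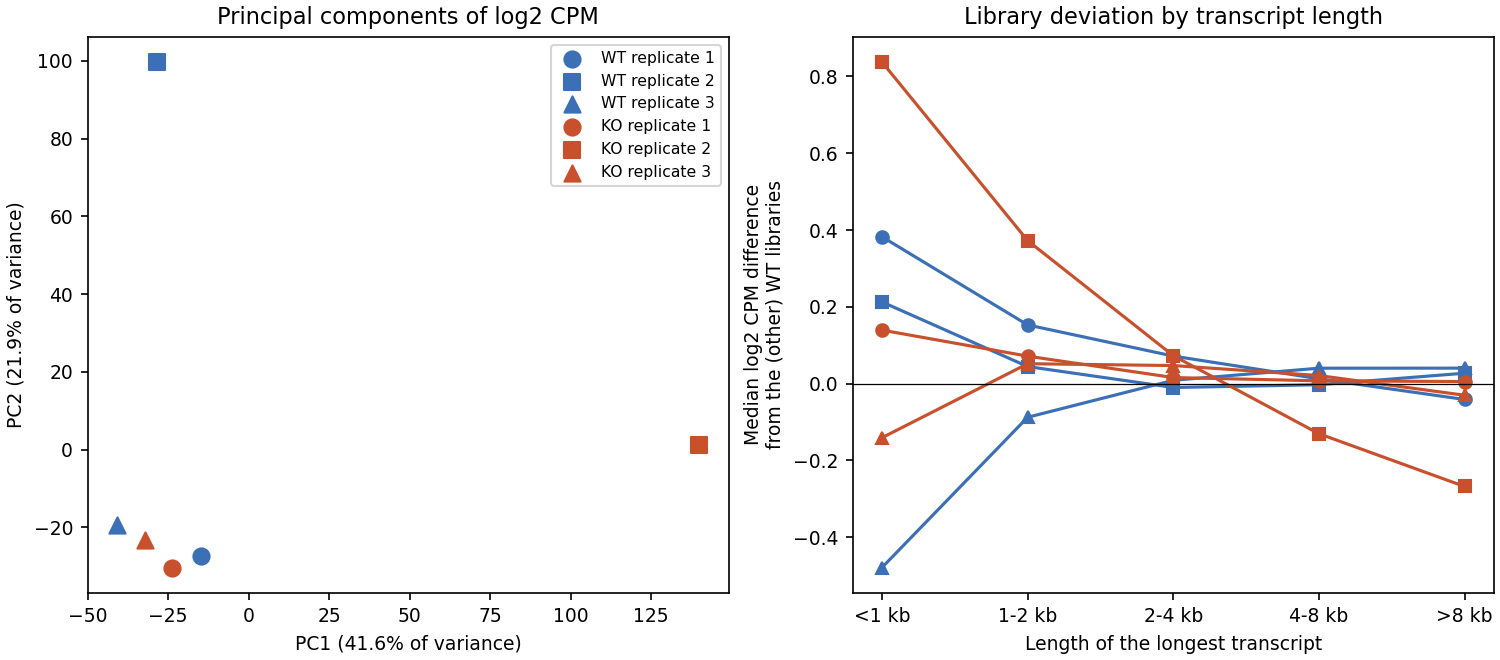
Left, principal components of log2 CPM, with 1 point per library (blue WT, red KO, marker shape the replicate) and the share of variance on each axis. Right, the median log2 CPM difference of each library from the WT libraries (for a WT library, from the other WT libraries) by length of the longest transcript; KO replicate 2 falls from 0.84 under 1 kb to -0.27 over 8 kb, a steeper fall than any other library shows.

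Kpna4 itself was at 39.0, 52.0 and 51.7 CPM in the WT libraries and at 65.6, 54.1 and 77.8 CPM in the libraries labelled KO. All 3 KO libraries lay above all 3 WT libraries, which goes against the direction the label leads one to look for. The log2 fold change was 0.47 (SE 0.23, edgeR unadjusted p 0.067), and 0.58 without KO replicate 2, where the unadjusted p was 0.029. Counts over the whole gene do not check the label, since a transcript that lacks the deleted part is still counted, and KO below always means the libraries labelled KO. None of the other importin α genes tested had an unadjusted p under 0.05: Kpna1 had a log2 fold change of 0.40 (SE 0.25), Kpna2 0.44 (SE 0.39), Kpna3 -0.20 (SE 0.26) and Kpna6 -0.02 (SE 0.36). Of 30 genes of nuclear import and export, 16 were above 0 and 14 below, with a median of 0.03 and none at an unadjusted p under 0.05. Leaving out KO replicate 2 gave a median of 0.01. At that mark 1 was then higher, Kpna4 itself, and 1 lower, beside 0.756% and 1.28% over all genes.

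No gene was called between KO and WT: 0 of 15755 genes tested (0%) reached an adjusted p under 0.05 in edgeR's quasi-likelihood test with Benjamini-Hochberg adjustment, where the smallest adjusted p came to 0.327. Leaving out KO replicate 2 also gave 0 of 16666 genes (0%), and there the smallest adjusted p was 0.489. Before adjustment 373 genes (2.37%) had a p under 0.05, 195 lower in KO (1.24%) and 178 higher (1.13%). Leaving out that library gave 340 (2.04%), 214 lower (1.28%) and 126 higher (0.756%). Every gene named below had an adjusted p of 0.999, and of 1.00 without KO replicate 2, so the p-values given with genes are edgeR's unadjusted ones and serve to order genes, not to call them.

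Effect sizes were centred on 0, where TMM scaling tends to place them, so this centre cannot show whether a common shift was present. The median log2 fold change was -0.01, with the 5th percentile at -1.02 and the 95th at 0.86. A log2 fold change below 0 was found in 50.6% of the genes, and in 51.4% without KO replicate 2. For 1360 genes (8.63%) the CPM ranges of the genotypes were apart, with KO lower in 694 (4.4%) and higher in 666 (4.23%). On CPM over the plain library total the split was 905 lower (5.74%) and 376 higher (2.39%). With KO replicate 2 left out fewer libraries have to separate, and 2710 genes (16.3%) did not overlap, 1276 lower (7.66%) and 1434 higher (8.6%). These shares are the background against which the gene groups are read.

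**Figure D2:**
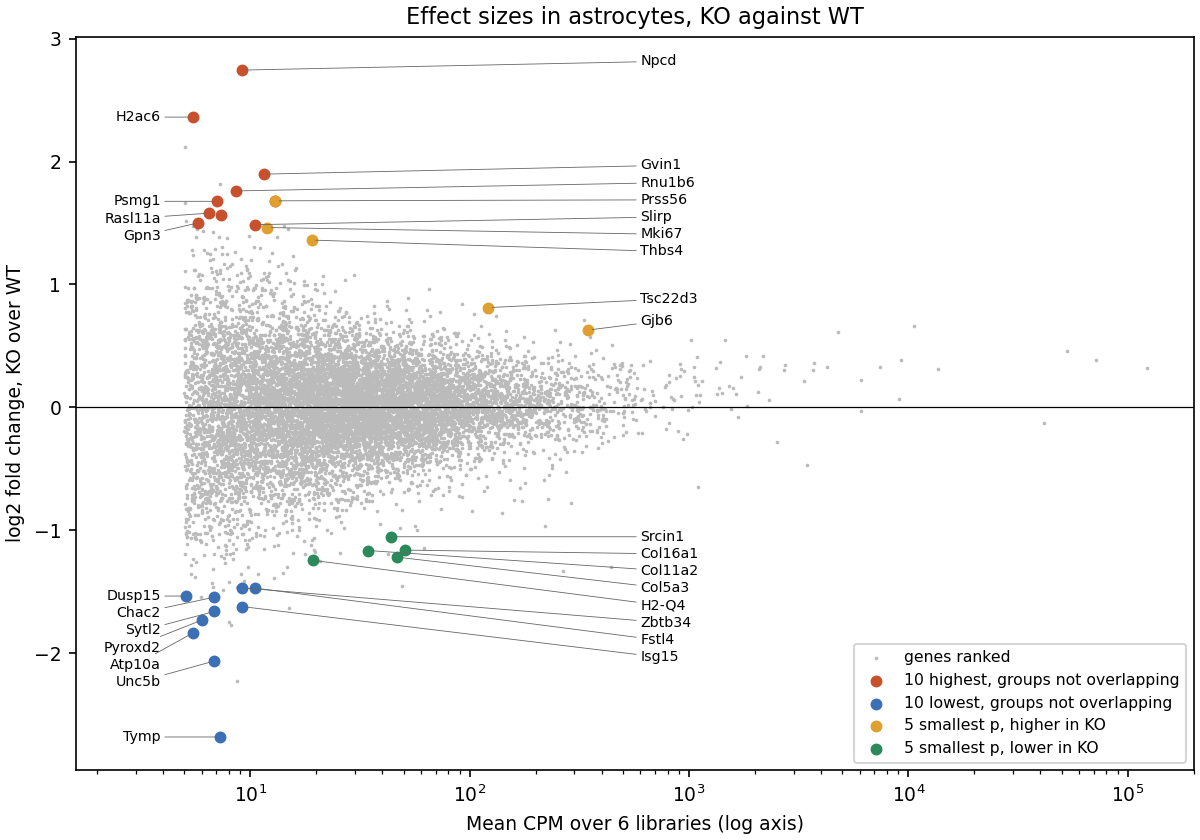
Each point is 1 of 10993 genes with a mean of at least 5 CPM, with mean CPM on a log axis and the KO over WT log2 fold change on the vertical axis. Coloured points, most of them named, are the 10 highest and 10 lowest fold changes among genes whose groups do not overlap, and the 5 smallest unadjusted p in each direction; the spread narrows with level, and the genes with the smallest p among the lower ones are Col16a1, Col5a3, Col11a2, H2-Q4 and Srcin1.

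Among the functional gene groups, interferon-responsive genes had the lowest median. Of 45 tested, 37 had a log2 fold change below 0 and 8 above, with a median of -0.50, beside 50.6% and -0.01 over all genes. Without KO replicate 2 there were 41 below 0 and a median of -0.47. An unadjusted p under 0.05 was found for 10 lower and 2 higher genes, beside 1.24% and 1.13% over all genes. Without KO replicate 2 there were 13 lower and none higher, beside 1.28% and 0.756%. In 13 the KO libraries lay below all WT libraries and in 2 above them, beside 4.4% and 4.23% over all genes. Over 15 alternative settings the median ran from -0.35 to -0.65, and the ends were the fits without KO replicate 1 and without KO replicate 3.

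The members at a p under 0.05 include genes whose promoters carry the element to which the interferon-activated complex binds. RefSeq promoter windows (GRCm38.p6, the 250 bases before the start of transcription) were found for 34 of the 45 genes, and 14 of these (41.2%) hold the core GAAA, any 2 bases, GAAA on either strand, against 3.0% of the genes tested that have a window. Of the 10 lower members at an unadjusted p under 0.05, 8 had a window. The core is in 5 of these 8, and in 9 of 26 genes with a window in the rest of the list. Those 5 windows follow, 5′ to 3′ on the gene's strand, with matches to the core in capitals (TTTC, any 2 bases, TTTC is the same core on the other strand, and matches may overlap). A match is a description of the letters and not a bound site.
Isg15, chr4:156200819-156201068, minus strand: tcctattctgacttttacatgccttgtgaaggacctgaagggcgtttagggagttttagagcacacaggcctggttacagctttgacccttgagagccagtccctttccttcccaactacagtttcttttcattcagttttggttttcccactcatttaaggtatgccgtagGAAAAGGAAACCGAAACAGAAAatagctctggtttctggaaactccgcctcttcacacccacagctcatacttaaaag
Ifit1, chr19:34640639-34640888, plus strand: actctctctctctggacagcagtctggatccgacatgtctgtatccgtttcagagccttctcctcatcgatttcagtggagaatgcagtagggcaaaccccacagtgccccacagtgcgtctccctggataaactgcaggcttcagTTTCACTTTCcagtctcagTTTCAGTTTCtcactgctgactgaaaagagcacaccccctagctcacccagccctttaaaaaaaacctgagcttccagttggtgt
Ifit3, chr19:34583279-34583528, plus strand: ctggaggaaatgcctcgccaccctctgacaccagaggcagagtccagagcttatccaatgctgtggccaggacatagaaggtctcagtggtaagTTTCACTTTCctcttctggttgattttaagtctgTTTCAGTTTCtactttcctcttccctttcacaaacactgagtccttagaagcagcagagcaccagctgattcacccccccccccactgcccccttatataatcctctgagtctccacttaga
Gbp3, chr3:142559794-142560043, plus strand: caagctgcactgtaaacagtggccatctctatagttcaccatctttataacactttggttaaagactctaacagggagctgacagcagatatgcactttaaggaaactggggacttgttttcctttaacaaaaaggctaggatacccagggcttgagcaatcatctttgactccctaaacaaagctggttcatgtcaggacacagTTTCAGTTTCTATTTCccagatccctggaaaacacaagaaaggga
Igtp, chr11:58199306-58199555, plus strand: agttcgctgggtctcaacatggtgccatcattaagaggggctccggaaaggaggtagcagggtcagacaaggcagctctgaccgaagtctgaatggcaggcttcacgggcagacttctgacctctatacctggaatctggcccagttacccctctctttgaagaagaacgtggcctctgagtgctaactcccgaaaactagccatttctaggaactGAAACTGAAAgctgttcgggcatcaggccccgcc
The matches in Isg15 begin 78, 72 and 66 bases before the start and run into each other, and that in Igtp begins 34 bases before it. Gbp3 has 2 windows in the table and the one with the core is shown.

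Genes of the ISG15 and IFIT system, which tag proteins with the ubiquitin-like ISG15 or bind foreign RNA, were all below 0, 8 of 8 with a median of -0.78, and 8 of 8 with -0.82 without KO replicate 2. Isg15 was at 14.8, 16.9 and 9.89 CPM in WT and at 3.15, 7.81 and 2.68 CPM in KO, with no overlap. Its log2 fold change was -1.62 (SE 0.52, p 0.00898), and -2.25 without KO replicate 2, the library with the highest KO value. Ifit1, which binds RNA without the host cap, was at 27.6, 50.4 and 67.3 CPM in WT and at 14, 21.6 and 28.0 CPM in KO. The groups touched, since KO replicate 3 lay just above WT replicate 1, and the log2 fold change was -1.19 (SE 0.36, p 0.00628), or -1.21 without KO replicate 2. Ifit3, a partner of Ifit1, was at 97.9, 98.3 and 149 CPM in WT and at 40.9, 82.4 and 84.5 CPM in KO, without overlap (log2 fold change -0.73, SE 0.29, and -0.88 without KO replicate 2), and its reads may be shared with the near-identical Ifit3b. Ifit2 did not follow, with a log2 fold change of -0.03.

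Antiviral effectors outside that system were below 0 in 15 of 17, with a median of -0.60, and in 16 with -0.53 without KO replicate 2. Oasl2, an OAS-like protein, was at 52.0, 66.6 and 104 CPM in WT and at 30.5, 38.7 and 44.5 CPM in KO. All KO values lay under all WT values, and the log2 fold change was -0.97 (SE 0.28, p 0.00535), or -0.99 without KO replicate 2. Rtp4, a receptor transporter protein, was at 34.7, 37.2 and 29.7 CPM in WT and at 13.6, 25.4 and 14.5 CPM in KO (log2 fold change -0.93, SE 0.31), and without KO replicate 2 the value was -1.27. Xaf1, which binds the apoptosis inhibitor XIAP, was at 21.5, 34.7 and 22 CPM in WT and at 17.6, 15.3 and 11.5 CPM in KO (log2 fold change -0.82, SE 0.32, and -0.85 without that library). In both genes, again, no KO library reached the lowest WT library.

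The interferon-inducible GTPases of the list, which act on the membranes around intracellular pathogens, were below 0 in 6 of 6 with a median of -0.65, both with and without KO replicate 2. Gvin1, a GTPase of the same kind that is not in the list, had a log2 fold change of 1.90. Gbp3 was at 96.8, 74.5 and 78.2 CPM in WT and at 37.8, 50.7 and 63.6 CPM in KO (log2 fold change -0.71, SE 0.24, and -0.72 without KO replicate 2). Igtp was at 36.2, 32.9 and 29.0 CPM in WT and at 11.5, 24.1 and 17.8 CPM in KO (log2 fold change -0.88, SE 0.31, and -1.16 without KO replicate 2). Iigp1 was at 15.9, 9.18 and 14.3 CPM in WT and at 5.81, 1.15 and 8.29 CPM in KO (log2 fold change -1.35, SE 0.61, p 0.047). It had -0.90 (p 0.061) without KO replicate 2.

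The receptors and signal carriers of the pathway showed no common direction, 5 of 9 below 0 with a median of -0.02, and 6 with -0.04 without KO replicate 2. Ifnar1 was at 56.6, 56.9 and 58.0 CPM in WT and at 52.2, 56.5 and 59.8 CPM in KO, a log2 fold change of -0.02. Its partner Ifnar2 was at 28.9, 26.3 and 28.6 CPM in WT and higher in all KO libraries, at 38.8, 53.6 and 34.5 CPM (log2 fold change 0.60, SE 0.25, p 0.036); without KO replicate 2 it was 0.38. The interferon-γ receptor subunit Ifngr1 had 0.58 (SE 0.26), and 0.29 without that library. Irf9, the DNA-binding subunit of the complex that type I interferon activates, had -0.54 and Irf7 -0.05. The cytosolic sensors of RNA and DNA were below 0 in 3 of 5, with a median of -0.21, and in 5 of 5 with -0.37 without that library.

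**Figure D3:**
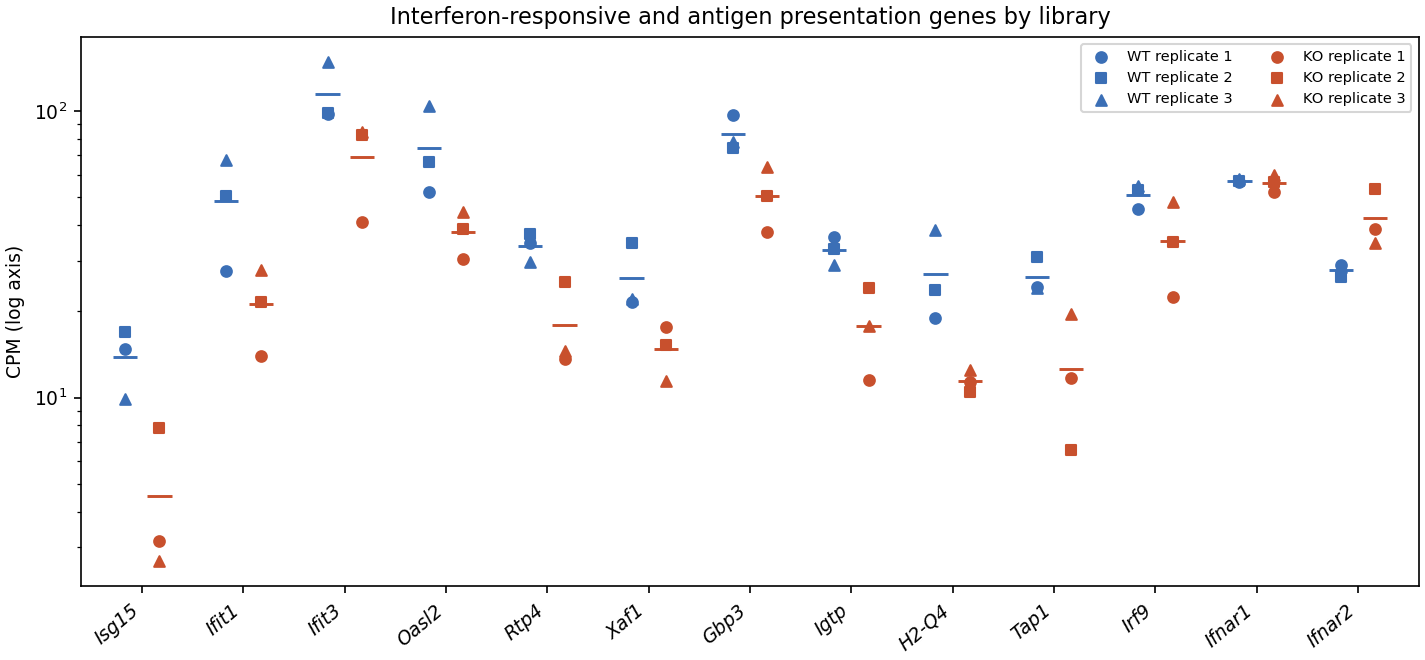
CPM on a log axis for 13 interferon-responsive, antigen presentation and interferon receptor genes, with 1 point per library (blue WT, red KO, marker shape the replicate) and a bar at each group mean. Isg15, Ifit3, Oasl2, Rtp4, Xaf1, Gbp3, Igtp, H2-Q4 and Tap1 have every KO point under every WT point, Ifnar1 has the groups on top of each other, and Ifnar2 has KO above WT.

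Cells other than astrocytes also express interferon-responsive genes, so their markers are given beside this group. The list of 21 blood markers holds 17 leukocyte genes and 4 haemoglobin genes of red cells. The leukocyte genes summed to 12.4 to 32.0 CPM in WT and 14.2 to 29.1 CPM in KO, and Ly6g, Cd3e, Cd8a, Cd79a and Nkg7 were among those with no count in any library. The haemoglobin genes summed to 23.2 to 131 CPM in WT and 36.3 to 73.0 CPM in KO. Of the 7 blood markers tested, 5 were below 0 with a median of -0.57, or -0.39 without KO replicate 2, and 4 of those 5 are the haemoglobin genes. Endothelial markers summed to 356 to 635 CPM in WT and 316 to 620 CPM in KO, with 10 of 14 genes below 0 and a median of -0.31, or 12 and -0.40 without KO replicate 2. Microglia markers had 12 of 16 genes below 0 and a median of -0.20, or 13 and -0.19. Oligodendrocyte markers were below 0 in 15 of 15 with a median of -0.36, and in 13 with -0.21 without that library. Their part in the interferon result was not tested. In sorted cells measured in bulk, fewer cells of a type and less RNA per cell cannot be told apart.

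Antigen presentation through MHC class I followed the interferon-responsive genes in direction, with 12 of 15 genes below 0 and a median of -0.35, or 11 and -0.32 without KO replicate 2. H2-Q4, a non-classical class I heavy chain, was at 19.0, 23.8 and 38.4 CPM in WT and at 11.3, 10.5 and 12.5 CPM in KO. The groups did not overlap and the log2 fold change was -1.24 (SE 0.34, p 0.00339); reads of the H2-Q genes may be shared among their near-identical copies. Tap1, a subunit of the transporter that brings peptides to class I molecules, was at 24.3, 30.9 and 24.1 CPM in WT and at 11.7, 6.55 and 19.6 CPM in KO (log2 fold change -1.06, SE 0.39, and -0.76 without KO replicate 2). The classical heavy chain H2-K1 had -0.25 (SE 0.19) and the shared light chain B2m had 0.13.

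Complement genes were mixed, with 10 of 15 below 0 and a median of -0.12, and 7 below 0 with 0.05 without KO replicate 2. C1ra, a protease of the first complement complex, had a log2 fold change of -1.23 (SE 0.47, p 0.0229). Serping1, the inhibitor of that protease, went the other way: it was at 22.1, 29.9 and 37.8 CPM in WT and at 39.0, 68.9 and 55.4 CPM in KO (log2 fold change 0.86, SE 0.29, p 0.0113). Serping1 did not overlap between the groups and stayed above 0 without KO replicate 2, at 0.65. C3, a hallmark of reactive astrocytes, was at 103, 152 and 231 CPM in WT and at 102, 78.6 and 237 CPM in KO, and its range in KO enclosed the WT range.

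The proinflammatory and NF-κB genes had no common direction. Of 29 cytokines, chemokines and enzymes 19 passed the filter on low counts, 11 were below 0, the median was -0.08 and none had an unadjusted p under 0.05. The median was -0.02 without KO replicate 2. The smallest p belonged to Cxcl10, a chemokine that interferon also induces, at 6.64, 10.1 and 6.08 CPM in WT and at 1.86, 6.55 and 2.55 CPM in KO. Its log2 fold change was -1.07 (SE 0.64) over all libraries and -1.78 (p 0.0138) without KO replicate 2, whose value lay within the WT range. Of 20 genes of the NF-κB pathway 12 were below 0 with a median of -0.14, which became 0.01 without KO replicate 2. Among them Rela, the p65 subunit, had a log2 fold change of 0.23, Nfkb1 -0.10 and the inhibitor Nfkbia 0.01. The genes of LPS sensing had 6 of 11 above 0 with and without KO replicate 2, with Tlr4 at 0.13 and the adaptor Myd88 at 0.75 (SE 0.41), or 0.52 without it. The STAT3 axis, which drives astrocyte reactivity, had 9 of 14 above 0 and a median of 0.10, or 8 and 0.06 without KO replicate 2, with Stat3 at 0.16 and Socs3 at 0.16.

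Over all libraries reactive astrocyte genes likewise had no common direction. The pan-reactive list had 7 of 13 below 0 and a median of -0.09, the A1 list 6 of 12 and -0.02, and the A2 list 3 of 8 and 0.10. Without KO replicate 2 these medians were 0.19, 0.10 and 0.41, with 6 of 8 genes of the A2 list above 0. Over all libraries 2 of the 12 A1 genes (Serping1 and Fkbp5) were higher and 1 (Iigp1) lower at an unadjusted p under 0.05. In the pan-reactive list 1 gene (Hspb1) was lower at that mark. The shares over all genes were 1.13% higher and 1.24% lower. Gfap, the intermediate filament that marks reactivity, was at 525, 421 and 678 CPM in WT and at 560, 691 and 813 CPM in KO (log2 fold change 0.35, SE 0.22). Serpina3n, an acute-phase protease inhibitor, was at 272, 322 and 514 CPM in WT and at 409, 496 and 669 CPM in KO (log2 fold change 0.51, SE 0.27). In both genes the groups overlapped. Vim had 0.35 and Lcn2 0.60, neither at a p under 0.05.

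Collagen genes held 3 of the 5 smallest p-values among the named genes lower in KO with at least 5 CPM. Of 39 tested, 29 were below 0 and 10 above, with a median of -0.39. At a p under 0.05, 5 were lower, beside 1.24% over all genes. Col16a1, a collagen that sits on the surface of fibrils, was at 76.4, 72.3 and 60.7 CPM in WT and at 32.8, 29.6 and 31.2 CPM in KO. The KO values were close to each other and under the lowest WT value, and the log2 fold change was -1.16 (SE 0.22, p 0.000193), or -1.13 without KO replicate 2. Col5a3, a chain of fibril-regulating type V collagen, was at 76.1, 58.0 and 61.0 CPM in WT and at 33.0, 18.5 and 32.1 CPM in KO (log2 fold change -1.22, SE 0.27, p 0.000802). Col11a2, a chain of type XI collagen, was at 60.8, 47.1 and 34.9 CPM in WT and at 24.7, 18.3 and 20.7 CPM in KO (log2 fold change -1.16, SE 0.28). Col9a2, a chain of fibril-associated type IX collagen, was at 18.4, 21.8 and 16.1 CPM in WT and at 9.37, 11.3 and 10.8 CPM in KO (log2 fold change -0.84, SE 0.33). None of these 4 genes overlapped between the groups, and without KO replicate 2 their log2 fold changes were -1.13, -1.0, -1.07 and -0.90.

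The collagen group as a whole did not keep its direction without KO replicate 2. The count became 21 below 0 and 18 above, and the median -0.09. At an unadjusted p under 0.05 there were then 4 lower and 2 higher, beside 1.28% and 0.756% over all genes. Collagen transcripts are long, with a median longest transcript of 6048 bases, and KO replicate 2 was low in long transcripts; the part of this in the group was not tested. Col1a1 went from -0.40 to -0.03 and Col4a5 from -0.07 to 0.30. Col4a1 and Col4a2, the main basement membrane chains, had -0.12 and -0.39 over all libraries. Of 14 mural and fibroblast markers, cells that also make collagen, 8 were below 0 with a median of -0.25, or 9 with -0.18 without KO replicate 2, and their sums were 467 to 628 CPM in WT and 441 to 548 CPM in KO. Genes that process collagen had 11 of 19 below 0 and a median of -0.10, or 11 and -0.03 without KO replicate 2.

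Matrix genes other than collagens had 17 of 30 below 0 and a median of -0.05, and 15 of 30 with 0.00 without KO replicate 2; differences between their roles were not tested. Laminins, nidogens and other basement membrane genes were below 0 in 10 of 12 with a median of -0.17, and in 7 of 12 with -0.04 without KO replicate 2. Hspg2, the basement membrane proteoglycan perlecan, was at 67.1, 106 and 85.6 CPM in WT and at 47.1, 65.6 and 61.7 CPM in KO (log2 fold change -0.57, SE 0.24, p 0.035). It did not overlap between the groups and had -0.67 without KO replicate 2. Proteoglycan and hyaluronan genes were below 0 in 6 of 9 with a median of -0.07, and in 6 with -0.08 without that library. Vcan, the proteoglycan versican, had a log2 fold change of -0.71 (SE 0.31, p 0.0436), or -0.51 without it. Matricellular genes, secreted proteins that act on cells and are not structural, were above 0 in 8 of 9 with a median of 0.31, and in 7 of 9 with 0.18 without that library. Thbs4, a thrombospondin, was at 14.5, 6.20 and 11.2 CPM in WT and at 25.8, 24.6 and 31.7 CPM in KO. Every KO value was above every WT value, and the log2 fold change was 1.36 (SE 0.36, p 0.00267) with and 1.42 without KO replicate 2.

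Heat shock chaperones had no common direction, 10 of 20 below 0 with a median of 0.01 (13 with -0.06 without KO replicate 2). At a p under 0.05, however, 3 members were lower, beside 1.24% over all genes. Hsp90aa1, the inducible cytosolic HSP90, was at 1399, 1431 and 1176 CPM in WT and at 721, 948 and 884 CPM in KO. The groups did not overlap, and the log2 fold change was -0.65 (SE 0.19, p 0.00482), or -0.74 without KO replicate 2. Hspb1, the small chaperone HSP27 and also a pan-reactive gene, was at 14, 6.95 and 13.8 CPM in WT and at 4.52, 3.79 and 4.67 CPM in KO (log2 fold change -1.42, SE 0.48, p 0.0121), again without overlap. Hspa1a was at 118, 65.2 and 72.7 CPM in WT and at 28.2, 14.4 and 73.0 CPM in KO. KO replicate 3 lay within the WT range, the log2 fold change was -1.14 (SE 0.47), or -0.76 without KO replicate 2, and its reads may be shared with the near-identical Hspa1b, which had -0.83. The co-chaperone Dnajb1 depended on 1 library, with 83.6 CPM in KO replicate 2 and 15.1 to 45.4 CPM in the other 5, and its log2 fold change went from 0.05 to -1.05 without it. Hspa5 and Hsp90b1, the chaperones of the endoplasmic reticulum, had 0.33 and 0.21.

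The heat shock factor HSF1 binds inverted repeats of the letters GAA. The promoter window of Hspb1 holds a pair of such cores, GAANNTTC, in capitals below. GAANNTTC or TTCNNGAA is held by 8 of the 14 chaperones with a window, against 12.4% of the genes tested that have a window.
Hspb1, chr5:135887669-135887918, plus strand: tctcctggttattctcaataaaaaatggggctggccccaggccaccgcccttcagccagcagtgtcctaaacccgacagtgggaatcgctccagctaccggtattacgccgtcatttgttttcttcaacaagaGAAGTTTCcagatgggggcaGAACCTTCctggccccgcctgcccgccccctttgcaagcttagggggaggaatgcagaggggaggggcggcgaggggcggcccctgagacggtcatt

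Genes induced by glucocorticoids, the stress hormones that also rise in systemic inflammation, were mostly higher in KO together with metallothioneins. Of 16 tested, 13 were above 0 with a median of 0.42. At a p under 0.05, 4 were higher, beside 1.13% over all genes. Without KO replicate 2 there were 14 above 0, a median of 0.23 and 2 at that mark, beside 0.756%. Tsc22d3, the glucocorticoid-induced leucine zipper, was at 77.0, 89.3 and 98.1 CPM in WT and at 157, 163 and 144 CPM in KO. The groups were well apart, and the log2 fold change was 0.81 (SE 0.19, p 0.0013), or 0.76 without KO replicate 2. Fkbp5, a co-chaperone of the glucocorticoid receptor, was at 14.8, 22.8 and 18.1 CPM in WT and at 35.9, 28.0 and 33.6 CPM in KO (log2 fold change 0.81, SE 0.28, p 0.0132), and 0.90 without that library. The metallothionein Mt2 was at 101, 148 and 104 CPM in WT and at 145, 215 and 156 CPM in KO, with overlap, and went from 0.55 to 0.35 without KO replicate 2. Other targets of the same receptor did not follow: Sgk1 had -0.46, Per1 -0.11 and Klf9 -0.17, and the receptor gene Nr3c1 had 0.09.

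Astrocyte identity genes were slightly higher in KO, 23 of 26 above 0 with a median of 0.12, and 22 and 0.09 without KO replicate 2. Most of the differences were small against their errors, as in the glutamate transporter Slc1a2 with 0.07 (SE 0.18), the water channel Aqp4 with 0.09 (SE 0.18) and the transcription factor Sox9 with -0.02 (SE 0.22). Of 19 genes for water, potassium and gap junctions 14 were above 0 with a median of 0.07, and 13 with 0.08 without KO replicate 2. At a p under 0.05, 2 connexins were higher, beside 1.13% over all genes. Gjb6, connexin 30 of the astrocyte gap junctions, was at 288, 256 and 273 CPM in WT and at 391, 476 and 396 CPM in KO (log2 fold change 0.63, SE 0.18, p 0.00504). Gjb2, connexin 26, was at 22.1, 21.2 and 33.0 CPM in WT and at 35.5, 43.8 and 48.3 CPM in KO (log2 fold change 0.74, SE 0.27, p 0.0176). Neither overlapped between the groups, and without KO replicate 2 the values were 0.53 and 0.71. The main connexin Gja1 was at 1401, 1260 and 1393 CPM in WT and at 1449, 1425 and 1529 CPM in KO, a log2 fold change of 0.12 (SE 0.17). Of 17 genes that handle glutamate and GABA 14 were above 0 with a median of 0.06, and 8 of 17 without KO replicate 2, and glutamine synthetase Glul had 0.33 (SE 0.19).

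**Figure D4:**
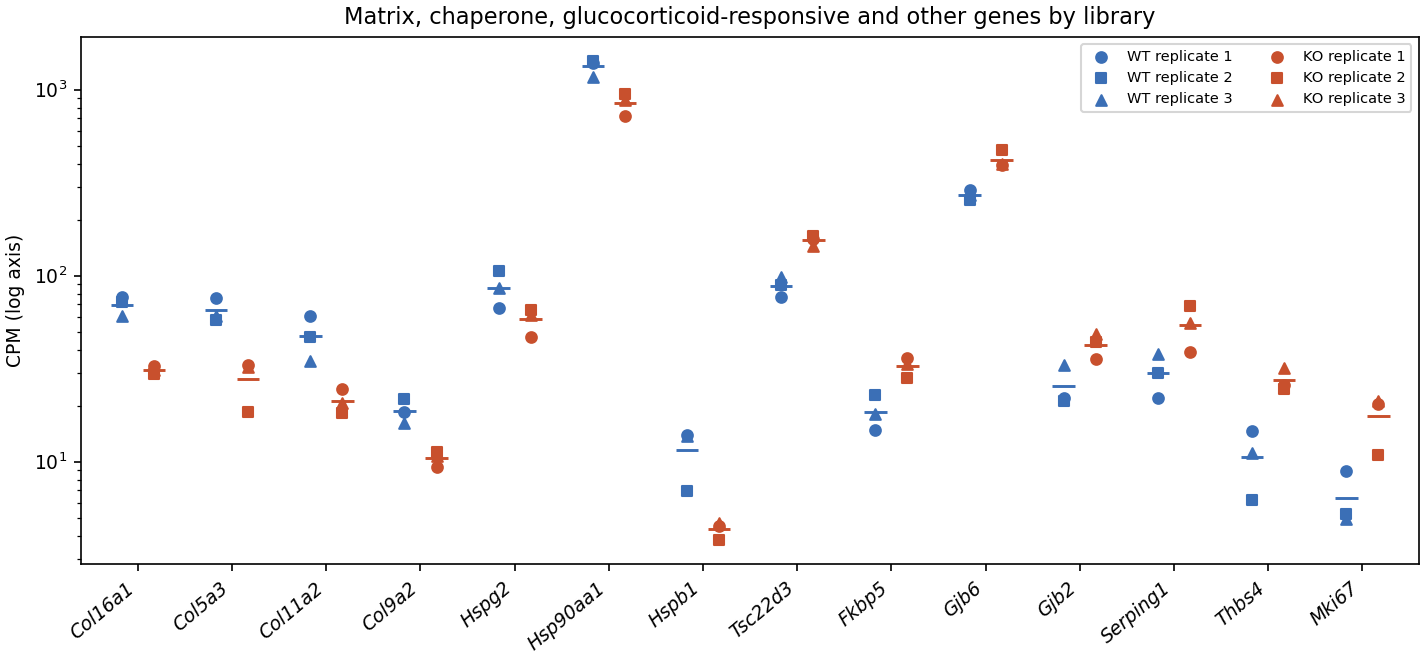
CPM on a log axis for 14 genes of matrix, chaperone, glucocorticoid-responsive, gap junction and other groups, drawn as in the plot of interferon-responsive genes. The KO points lie under the WT points from Col16a1 to Hspb1 and above them from Tsc22d3 to Mki67, with no overlap in any of the 14 genes. The genes drawn were picked from those named, and over all genes tested 8.63% did not overlap. Col6a5, Hspa1a and Mt2, of the same groups, did overlap and are not drawn.

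Metabolic groups leaned to higher values in KO. Cholesterol synthesis had 16 of 23 genes above 0 and a median of 0.21, and without KO replicate 2 it had 15 above 0 and 0.20. At a p under 0.05 there were 2 higher members, and none without that library, beside 1.13% and 0.756% over all genes. Its members with the smallest p were Msmo1, which oxidizes methyl groups of sterols, at 207, 217 and 151 CPM in WT and 308, 370 and 211 CPM in KO (log2 fold change 0.63, SE 0.24), and Mvd, which makes isopentenyl diphosphate, with 0.99 (SE 0.44). Msmo1 had 0.43 (p 0.0895) and Mvd 0.90 (p 0.0872) when that library was left out. The groups overlapped in Msmo1 and not in Mvd. Glycolysis had 15 of 21 above 0 with a median of 0.16, or 0.10 without that library. Fatty acid oxidation had 12 of 16 above 0 with 0.19, or 0.05. Antioxidant genes had 13 of 20 above 0 and a median of 0.08, with 3 higher at a p under 0.05, beside 1.13% over all genes. Nfe2l2, the transcription factor NRF2, had a log2 fold change of 0.56 (SE 0.23). Its target Gclm, a subunit of the enzyme that starts glutathione synthesis, had 0.65 (SE 0.25) and Prdx6 had 0.47 (SE 0.20). Without KO replicate 2 the median was 0.10 and 1 was at that mark, Gclm with 0.73, while Nfe2l2 had 0.42 (p 0.101) and Prdx6 0.29 (p 0.137).

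Ribosomal protein and respiratory chain genes had medians above 0 with KO replicate 2 in the fit and from -0.08 to -0.02 without it. Of 83 cytosolic ribosomal protein genes 73 were above 0 with a median of 0.26, and 38 of 83 with -0.02 without that library. Of 79 nuclear-encoded respiratory chain genes 70 were above 0 with a median of 0.34, and 29 with -0.08 without it. The 13 mitochondrial messenger RNAs had 12 above 0 with a median of 0.33, and 3 with -0.02. COX1 shows the pattern: 6663, 6697 and 6305 CPM in WT and 5894, 11572 and 7256 CPM in KO. The nuclear groups have median longest transcripts of 1094 and 1046 bases. Over all genes of 1000 to 2000 bases the median log2 fold change was 0.15 over all libraries and 0.02 without KO replicate 2. For genes under 1 kb these medians were 0.28 and -0.07. The part of transcript length in these groups was not tested. Proteasome genes, with a median length of 1955 bases, kept part of the difference, 36 of 43 above 0 with a median of 0.27 and 32 with 0.11 without that library.

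Over all libraries histone genes were the functional group with the highest median, 46 of 52 above 0 with 0.56. Without KO replicate 2 they had 36 above 0 with 0.24, under the A2 reactive astrocyte list with 0.41. Their median length was 539 bases. H2ac6 was at 0.769, 1.24 and 3.32 CPM in WT and at 8.88, 11.9 and 6.85 CPM in KO (log2 fold change 2.36, SE 0.69, p 0.00541), and 2.12 without that library. H2ac7 had no count in WT and 15, 27 and 58 counts in KO, at least 12.3-fold higher against a floor of 3 counts per WT library, and the median of the group with it at that bound was 0.56. H2ac13 went the other way, at 2.87, 11.5 and 6.51 CPM in WT and at 0, 0 and 1.62 CPM in KO. Reads of clustered histone genes may be divided between near-identical copies. Proliferation genes had no common direction, 10 of 18 below 0 with a median of -0.01 (9 with -0.04 without KO replicate 2), yet Mki67, the gene of the Ki-67 protein of cycling cells, was at 8.95, 5.21 and 4.91 CPM in WT and at 20.5, 10.8 and 21.2 CPM in KO (log2 fold change 1.46, SE 0.43, p 0.00536), and 1.71 without KO replicate 2. Top2a, topoisomerase II of dividing cells, was at 3.57, 1.90 and 3.19 CPM in WT and at 9.04, 7.35 and 7.72 CPM in KO (log2 fold change 1.47, SE 0.57).

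Ranked by effect size among genes of at least 5 CPM whose groups did not overlap, the 10 highest in KO ran from 2.74 to 1.49 and included Npcd, H2ac6, Gvin1, Rnu1b6, Prss56, Psmg1, Rasl11a, Gpn3 and Slirp. Without KO replicate 2 the values of 9 of the 10 were smaller, and only that of Rnu1b6, a copy of the U1 spliceosomal RNA, was larger, at 2.10. Slirp, a mitochondrial RNA-binding protein, shows the library: 6.08, 6.95 and 3.56 CPM in WT and 7.59, 29.98 and 9.10 CPM in KO, with 1.49 falling to 0.59. Psmg1, a proteasome assembly chaperone, went from 1.68 to 1.09, and Gpn3 from 1.5 to 0.94, with p-values of 0.0915 and 0.167 without KO replicate 2. Prss56, a trypsin-like serine protease, was more even, at 5.10, 3.97 and 9.34 CPM in WT and 15.2, 23.5 and 20.6 CPM in KO (log2 fold change 1.68, SE 0.42, p 0.00185), and 1.53 without KO replicate 2. Npcd leads the ranking on unequal counts, with 7.06, 0 and 0 CPM in WT and 13.6, 22.1 and 12 CPM in KO, and it overlaps Nptxr and Cbx6, so its reads are uncertain. Reads of Gvin1, an interferon-inducible GTPase with many near copies and a log2 fold change of 1.90 (SE 0.72), are uncertain too, and it ran against the other interferon-inducible GTPases.

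The 10 lowest were Tymp, Unc5b, Atp10a, Pyroxd2, Sytl2, Isg15, Chac2, Dusp15, Fstl4 and Zbtb34, from -2.68 to -1.47. Without KO replicate 2 the size was smaller in 8 of them and larger in Isg15 and Atp10a. Unc5b, a netrin receptor, was at 14.4, 6.37 and 12.2 CPM in WT and at 2.34, 1.26 and 4.17 CPM in KO (log2 fold change -2.06, SE 0.60, p 0.00531), and -1.76 without that library. Tymp, thymidine phosphorylase, was at 6.92, 20.0 and 11.1 CPM in WT and at 0, 0 and 5.67 CPM in KO, with an SE of 1.25, and it overlaps Sco2 and Ncaph2. Sytl2 was at 0 CPM in KO replicate 2 and at 2.42 and 7.29 CPM in the other KO libraries, and its log2 fold change went from -1.66 to -1.11. Srcin1, an inhibitor of the kinase SRC, was at 58.3, 50.7 and 68.0 CPM in WT and at 35.4, 17 and 32.8 CPM in KO (log2 fold change -1.05, SE 0.29). Ranked without KO replicate 2, Pld4, an endolysosomal exonuclease, entered the 5 lowest at -2.19 from -1.08 and Frmpd3 at -2.04 from -1.19; Tymp, Atp10a and Isg15 were the others. Mki67 entered the 5 highest at 1.71, beside Npcd, H2ac6, Gvin1 and Rnu1b6. Most of these ranked genes lie near 5 to 15 CPM, where the errors are widest: of the 10993 ranked genes 101 were above a log2 fold change of 1 and 123 below -1.

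**Figure D5:**
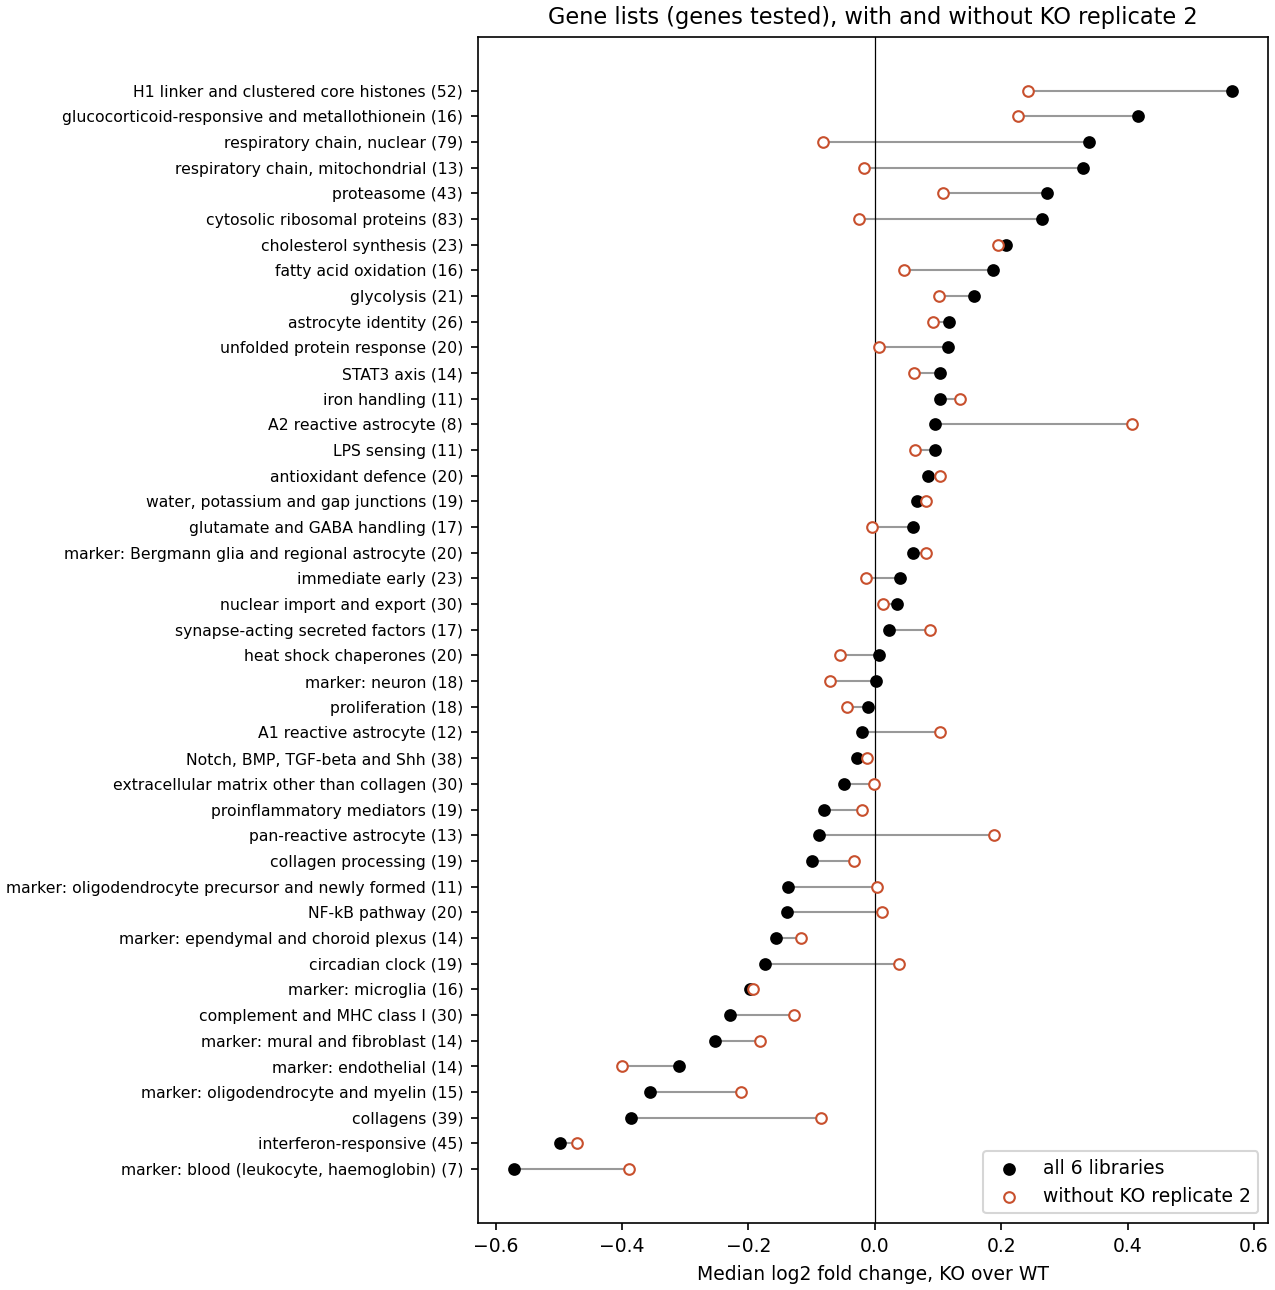
Median KO over WT log2 fold change of each gene group (number of genes tested in brackets), with filled points for all 6 libraries and open points without KO replicate 2. The interferon-responsive and cholesterol synthesis points hardly move (-0.50 to -0.47 and 0.21 to 0.20), while ribosomal proteins, both parts of the respiratory chain and the collagens move to near 0.

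Among the markers of other cells, Mbp, the myelin basic protein of oligodendrocytes, was at 430, 82.0 and 1372 CPM in WT and at 179, 159 and 427 CPM in KO, and the KO range lay within the WT range (log2 fold change -1.30, SE 0.71). The endothelial genes Vwf and Flt1 had -1.35 each, or -1.07 and -0.99 without KO replicate 2. They had the smallest p of 14 endothelial markers, 4 of which were above 0, with a median of -0.31. Vwf was at 22.8, 7.94 and 16 CPM in WT and at 6.86, 3.22 and 8.10 CPM in KO. Flt1 was at 32.7, 7.61 and 20.3 CPM in WT and at 7.83, 3.22 and 12.5 CPM in KO. The groups overlapped in both genes. Ependymal and choroid plexus markers had 11 of 14 below 0 with a median of -0.16, and neuron markers 9 of 18 with 0.00. These became 12 with -0.12 and 10 with -0.07 without KO replicate 2.

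The genotype effects in astrocytes and in the microglia of the same animals were compared directly. In 1 fit of all 12 libraries with an interaction term, 0 of 17294 genes (0%) were called for a difference between the genotype effects. At an unadjusted p under 0.05 there were 1102. The fit had no term for the animal, so the astrocyte and microglia libraries of an animal were treated as independent. Interferon-responsive genes had a median of -0.48 in astrocytes and -0.25 in microglia, and the median difference of -0.04 is to be read beside 0.16 over all genes. Igtp had -0.87 in astrocytes and 0.31 in microglia, a difference of -1.18 (p 0.00652, adjusted p 0.555). Isg15 had -1.61 and -0.81, Ifit1 -1.19 and -0.88, and Hsp90aa1 -0.64 and -0.66. Kpna4 had 0.47 in astrocytes and -0.40 in microglia, a difference of 0.87 (p 0.0118, adjusted p 0.614). No difference between the cell types was thus shown for any of these genes in this fit, which left out the pairing by animal.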

How the data were processed

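The data are RNA-seq libraries from astrocytes sorted by flow cytometry, prepared with full-length SMART-Seq cDNA and Nextera per the labels' protocols. The authors deposited estimated counts per gene symbol (40853 symbols), not normalized. Per the submitters' processing notes STAR 2.7.10b, RSEM 1.3.3 and limma were used with build GRCm39, while the annotation was not given in the sources used here. Of the values above 0, 3.44% to 4.72% were not whole (tolerance 0.001), and all were rounded. cDNA was amplified without molecular identifiers, so counts are not independent molecules and floors cover counting error only. Full-length counts also scale with transcript length.

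The 6 astrocyte libraries were grouped by genotype and tested with edgeR 4.0.16 in R 4.3.3 (quasi-likelihood test, TMM, filterByExpr with a minimum count of 10, Benjamini-Hochberg adjustment over all genes tested, with calls made where the adjusted p was under 0.05). Standard errors are the log2 fold change, without sign, over the square root of F. CPM are rounded counts over the TMM-scaled library size, on the usual scale. This scale was chosen after seeing the composition of KO replicate 2. Libraries of a group differed by more than counting noise: chi-square over its degrees of freedom was at least 33.6. The fit was tested on simulated data.

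The gene lists and the genes named were chosen with earlier results of these data known, so lists are described by counts and medians only. The rule names Kpna4; among genes with a mean of at least 5 CPM and no clone name, the 10 highest and 10 lowest log2 fold changes with groups that do not overlap, the 5 smallest p in each direction, and the 5 highest and lowest without KO replicate 2; and per list up to 3 genes at a p under 0.05 (up to 8 for interferon-responsive genes and collagens), otherwise the smallest p. Some genes are not reported here. Other genes were chosen after their values were seen: Ifit2, Ifnar1, Ifnar2, Ifngr1, Irf9, Irf7, H2-K1, B2m, C1ra, C3, the NF-κB, LPS sensing and STAT3 genes, Gfap, Serpina3n, Vim, Lcn2, Col1a1, Col4a1, Col4a2, Col4a5, Dnajb1, Hspa1b, Hspa5, Hsp90b1, Sgk1, Per1, Klf9, Nr3c1, Slc1a2, Aqp4, Sox9, Gja1, COX1, Arntl, Fos, Jun and the other importins. Kpna4 and the markers check no deletion.

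Transcript lengths are the longest transcript per symbol in GENCODE M21, found for 99.6% of ranked genes. Promoter windows are from RefSeq (GRCm38.p6). No gene coordinates are printed, since no annotation of GRCm39 was used here. Alternatives were DESeq2 1.42.0, its size factors in edgeR, no filter, a minimum count of 50, limma voom with quality weights (limma 3.58.1), thinning to the smallest library, leaving out the 8 abundant non-coding RNAs, all 12 libraries in 1 fit, each library left out, the replicate number as a block, and CPM over the library total (added after seeing the data).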

Additional observations from a re-analysis of the deposited data

How the results depend on the processing

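The count of called genes, 0, was 6 with DESeq2, 17 with no filter on low counts and 0 to 1 with a library left out, where the 1 is Npcd without WT replicate 1. It was 0 under the other alternatives. Col16a1 was called both by DESeq2 (adjusted p 0.0195) and with no filter (adjusted p 0.0234), and over the 15 alternatives its log2 fold change ran from -1.25 to -1.09. Of the 6 genes called by DESeq2, Gm41693 and Zar1 had counts in KO replicate 2 only. The 17 called with no filter include Mbp, whose KO range lay within the WT range. They also include Gnrh1, with counts in KO replicate 2 only, and H3c14, with counts in KO replicate 1 only. The 373 genes at an unadjusted p under 0.05 became 749 with DESeq2, 845 with no filter, 641 with all 12 libraries in 1 fit and 257 to 962 with a library left out, the 962 without KO replicate 3. Genes whose groups do not overlap numbered 2642 to 3701 with a library left out, where 1 library fewer has to separate, against 1360. Every gene named by the rule kept the sign of its log2 fold change under each alternative that tested it, while the medians of some lists changed sign, ribosomal proteins and the respiratory chain among them. Kpna4 stayed above 0 under all 15 alternatives, from 0.33 to 0.58.

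With the replicate number as a block there were 0 called genes and 508 at an unadjusted p under 0.05, Kpna4 had 0.47 and interferon-responsive genes a median of -0.51. The labels pair no WT with a KO animal, so the numbers were not taken as pairs. Deviations of same-numbered libraries correlated at -0.02, 0.05 and 0.27. By chi-square over its degrees of freedom each KO library lay closest to the same-numbered WT library, at 22.8, 66.5 and 19.8. WT replicate 2, however, lay closer to KO replicate 1, at 32.5. Whether the numbers mark pairs was not tested. With 3 animals a group, a common biological coefficient of variation of 0.481 and amplified counts, genes near 5 CPM have the widest errors.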

Other observations

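Clock, immediate early, stress and iron genes were examined in the same way. Of 19 circadian clock genes 13 had a log2 fold change below 0, the median being -0.17, and 8 were below 0 with a median of 0.04 without KO replicate 2. Nr1d2, a repressor of the clock, was at 54.3, 87.1 and 57.0 CPM in WT and at 40.4, 38.3 and 50.5 CPM in KO, without overlap (log2 fold change -0.62, SE 0.25, edgeR unadjusted p 0.0304), and had -0.55 (p 0.0653) without KO replicate 2. The clock activator Arntl was at 23.3 CPM in KO replicate 2 and at 47.0 to 67.4 CPM in the other libraries. Immediate early genes, which tissue dissociation can induce, had 16 of 23 above 0 with a median of 0.04. Fos was at -0.23 (SE 0.30) and Jun at -0.12 (SE 0.22) on the log2 fold change scale. Without KO replicate 2 the list had 10 of 23 above 0 with a median of -0.01.

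The unfolded protein response had 14 of 20 genes above 0 with a median of 0.12, and 0.01 without KO replicate 2. Its member with the smallest p, Sdf2l1, a cofactor of the endoplasmic reticulum chaperone BiP, was at 4.20, 1.90 and 5.65 CPM in WT and at 14.6, 19.4 and 5.48 CPM in KO, so KO replicate 3 lay within the WT range (log2 fold change 1.74, SE 0.59, and 1.34 without KO replicate 2). Of 11 iron genes 8 were above 0, or 7 without that library, and the iron reductase Steap3 was at 8.11, 3.72 and 6.33 CPM in WT and at 13.4, 12.1 and 11.6 CPM in KO, without overlap (log2 fold change 1.03, SE 0.44, and 1.04 without KO replicate 2). Notch, BMP, TGF-β and Shh genes had 23 of 38 below 0 with a median of -0.03, or 19 with -0.01 without KO replicate 2, and Notch3 had -0.44 (SE 0.23). Secreted factors that act on synapses had 8 of 17 below 0, or 7 without KO replicate 2, and none of them had an unadjusted p under 0.05 in either fit.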
